A study of Mus musculus with 4 samples.

Results

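Cytosolic ribosomal protein genes encode the proteins that, together with ribosomal RNA, build the small and the large subunit of the ribosome in the cytoplasm. Cells make these proteins in matched amounts, and the messenger RNAs share a start rich in C and T, the 5′ terminal oligopyrimidine (TOP) tract, through which the kinase mTORC1 and the binding protein LARP1 set their translation. In the heart, ribosome number is known to follow growth of the cardiomyocyte. The genes were chosen by symbol among RefSeq records of protein-coding messenger RNAs, without the kinases of ribosomal protein S6 and without pseudogene models. This gave 82 genes out of 27268 in all, 32 of the small and 50 of the large subunit, of which 80 averaged 1 CPM or more and were compared (CPM are counts relative to the TMM-adjusted size of a library).

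The RNA came from primary cardiomyocytes of CD1 mice at postnatal day 1, kept in culture and sequenced 72 h after transfection. Cells received a mimic of the human microRNA hsa-miR-199a-3p, a mimic of the human microRNA hsa-miR-590-3p, a mimic of cel-miR-67 (a Caenorhabditis elegans microRNA used as a control), or transfection without a mimic (mock). The mimics were used at 50 nM, and all cells were exposed to the lipid reagent. Each condition is 1 library, so no difference has a replicate check, no significance test was made, and the 95% intervals below cover counting error only. The libraries held 38745528 (hsa-miR-199a-3p), 34452240 (hsa-miR-590-3p), 34255689 (cel-miR-67) and 31638930 (mock) reads.

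The mature mouse counterpart of the first mimic is shown because the contrast below turns on it, with the seed (bases 2 to 8) in capitals. It is encoded at chr1:162217883-162217904, plus strand, and at chr9:21496498-21496519, minus strand (RefSeq, GRCm38.p6).
mmu-miR-199a-3p: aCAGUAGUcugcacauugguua

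The promoters of the genes were searched for runs of C and T near the annotated start. This does not test for a TOP tract at the first base of the messenger RNA. RefSeq (GRCm38.p6) start windows of 300 bases, 250 before and 50 after the start, were found for 62 of the 82 genes, 74 windows in all. A run of at least 8 C or T on the coding strand, within 50 bases of the start on either side, stood in 78.4% of the 74 windows, against 35.7% of all 32851 windows in the reference. The longest run had a median of 10 bases in the windows of ribosomal protein genes and 7 bases in all windows. The letters CTCTTT, which can lie within such runs, were searched on the coding strand of the whole window and were found in 35.1% of windows of ribosomal protein genes and 12.1% of all windows. CCGGAAG, a core recognised by ETS factors, was searched on both strands and was present in 36.5% against 8.86%. AAGATGG, a core recognised by YY1, was searched likewise and was present in 14.9% against 6.34%. A match of letters describes the window and does not show binding or use of a start.

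The windows below run from 60 bases before to 20 bases after the annotated start, with their longest run of C or T in capitals. The first 6 have a run that spans the start or, in Rpl18, begins at the next base, and were picked for that feature. It does not stand for all the genes. In others the longest run within 50 bases lay away from the start, beginning for example at position 41 in Rpl10 and -50 in Rpl26. Rpl36al and Rps3 are shown as genes without a run that spans the start. The longest run in each printed window is 6 bases, and the run in capitals lies far upstream. Rps3 holds another run of the same length, closer to the start and not in capitals. Beyond its printed window Rpl36al has a run of 10 bases from position 29, so it counts among the genes with a run of at least 8. The ratios of Rpl36al and Rps3 under hsa-miR-199a-3p go in opposite directions, as described below. Positions are Rpl18 chr7:45718011-45718090 (plus strand), Rps10 chr17:27635225-27635304 (minus), Rpl35 chr2:39005112-39005191 (minus), Rpl14 chr9:120571457-120571536 (plus), Rpl28 chr7:4792905-4792984 (plus), Rpl38 chr11:114668520-114668599 (plus), Rpl36al chr12:69184048-69184127 (minus) and Rps3 chr7:99483690-99483769 (minus).
Rpl18: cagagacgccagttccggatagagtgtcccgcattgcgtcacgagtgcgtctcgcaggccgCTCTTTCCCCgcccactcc
Rps10: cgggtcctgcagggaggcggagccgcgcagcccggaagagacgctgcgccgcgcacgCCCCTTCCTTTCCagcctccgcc
Rpl35: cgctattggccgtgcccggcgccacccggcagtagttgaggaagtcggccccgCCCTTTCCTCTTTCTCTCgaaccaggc
Rpl14: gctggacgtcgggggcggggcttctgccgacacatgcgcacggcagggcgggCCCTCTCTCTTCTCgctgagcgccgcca
Rpl28: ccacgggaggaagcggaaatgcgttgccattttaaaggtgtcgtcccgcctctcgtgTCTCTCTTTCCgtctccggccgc
Rpl38: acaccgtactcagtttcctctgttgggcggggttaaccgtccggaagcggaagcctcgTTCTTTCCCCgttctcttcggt
Rpl36al: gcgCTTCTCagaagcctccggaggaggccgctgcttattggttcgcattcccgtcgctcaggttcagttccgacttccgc
Rps3: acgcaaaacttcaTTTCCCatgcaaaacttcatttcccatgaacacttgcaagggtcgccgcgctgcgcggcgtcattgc

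The genes are short and have many processed copies in the genome, which bears on how their reads were counted. Record lengths ran from 328 bases (Rps28) to 5158 bases (Rps15a), with a median of 709 bases, against 2830 bases for all genes tested. A median of 17.9% of the reads of a gene were placed uniquely. In 20 genes fewer than 5% were unique, in 34 genes 5 to 50%, and in 27 genes at least 50%, 14 of them with at least 99%. Each main result is therefore also given for the 26 measured genes with at least 50% unique reads.

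The 82 genes together took a larger share of the hsa-miR-199a-3p library than of any other. They held 3.34% of its reads, against 2.52% under hsa-miR-590-3p, 2.54% under cel-miR-67 and 2.69% in mock. The first share is 1.28 times the mean of the cel-miR-67 and mock shares. Relative to the TMM-adjusted library sizes used for CPM, the shares were 3.21%, 2.46%, 2.60% and 2.81% in the same order, a smaller excess. The order at the top was the same for uniquely placed reads, of which the genes took 1.96% under hsa-miR-199a-3p, 1.47% under hsa-miR-590-3p, 1.48% under cel-miR-67 and 1.59% in mock. Per kilobase of record the shares were 9.55%, 7.75%, 7.66% and 7.92% in the same order, and the ratio was 1.23. Small subunit genes took 1.40% of the hsa-miR-199a-3p reads, against 1.06%, 1.07% and 1.14% in hsa-miR-590-3p, cel-miR-67 and mock. Large subunit genes took 1.94% under hsa-miR-199a-3p, against 1.47% in each of hsa-miR-590-3p and cel-miR-67 and 1.55% in mock. In bulk RNA, a change in the mix of cells and a change in RNA per cell cannot be told apart.

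**Figure D1:**
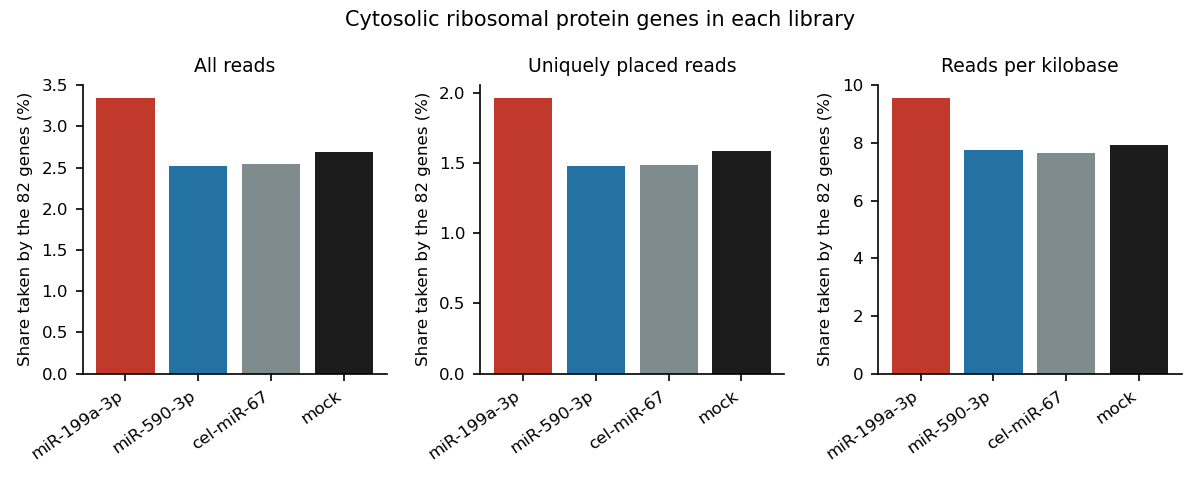
Share of each library taken by the 82 cytosolic ribosomal protein genes, in percent of all reads (left), of uniquely placed reads (middle) and of reads per kilobase of record (right), 1 bar per library. The hsa-miR-199a-3p bar is the tallest in each panel (3.34%, 1.96% and 9.55%), and the other 3 lie close together.

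Levels between genes were compared per length, as RPKM. In the mock library the measured genes ran from 1.78 to 1242 RPKM with a median of 460.1 RPKM. Among the genes with at least 50% unique reads the range was 150.4 to 805 RPKM, a 5.35-fold span, and this span was 5.39-fold under hsa-miR-199a-3p, 5.63-fold under hsa-miR-590-3p and 5.70-fold under cel-miR-67. Rpl41, which encodes the smallest protein of the ribosome, was the highest of all, with 1488 RPKM under hsa-miR-199a-3p, 1212 under hsa-miR-590-3p, 1211 under cel-miR-67 and 1242 in mock. Next in mock came Rplp1, a protein of the stalk that recruits elongation factors, with 1158 RPKM, then Rps2 with 861, Rpl10 with 832, and Rps4x with 805. Rpl10 joins the large subunit last and Rps4x is the X-linked form of S4.

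The lowest levels belonged to genes whose reads were almost all shared with other records, or to relatives of restricted expression. Rpl29 had 1.78 RPKM in mock, Rpl31 4.50, Rpl34 11.5, Rpl21 25.2 and Rpl5 39.3, and at most 5.17% of the reads of any of these were unique. These are standard proteins of the large subunit, so the values of these 5 genes are not read here as levels of their messenger RNA. Rpl3l, the striated-muscle relative of Rpl3, had 2.91 CPM under hsa-miR-199a-3p, 2.40 under hsa-miR-590-3p, 2.54 under cel-miR-67 and 2.44 in mock, with 22.4% unique reads. Rpl3 itself had 849, 622, 639 and 695 CPM in the same order. Their records have similar lengths, 1398 and 1361 bases. Rpl39l had 2, 3, 0 and 1 reads in that order and Rpl10l had 0 reads in all 4 libraries. These relatives of Rpl39 and Rpl10 are known from the testis, and a count of 0 allows up to 0.0745 CPM in the deepest and 0.0987 CPM in the shallowest library, taking 3 reads as the limit.

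**Figure D2:**
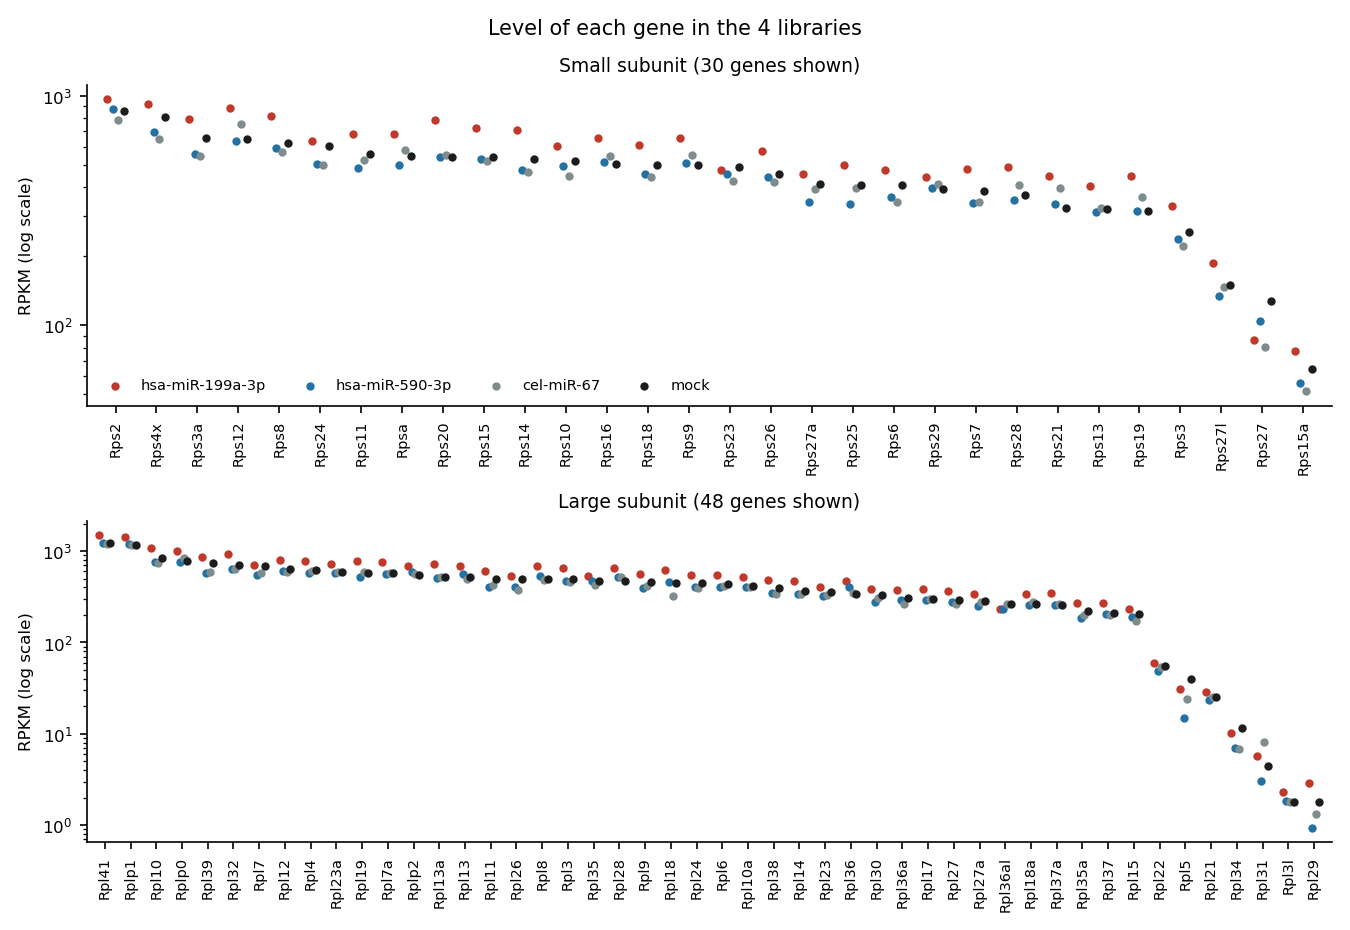
Level of the measured genes, except a few not reported here, in the 4 libraries, as RPKM on a log axis, with small subunit genes above and large subunit genes below, ordered by the mock level. Most genes lie between about 150.4 and 1242 RPKM with the hsa-miR-199a-3p point on top. Rpl29, Rpl31, Rpl34, Rpl21 and Rpl5, with at most 5.17% unique reads, lie far lower, as does Rpl3l.

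Under hsa-miR-199a-3p nearly all the genes were somewhat higher than in both controls, by a similar small amount. Of the 80 measured genes, 71 were above both cel-miR-67 and mock, against 40.2% of all 13503 genes tested, and only Rpl36al was below both, against 41.9%. The median log2 ratio of the 80 genes was 0.31 over cel-miR-67 and 0.21 over mock, while the medians of all genes tested were 0.00 and -0.01. Small subunit genes were above both controls in 29 of 32 cases (medians 0.27 and 0.21) and large subunit genes in 42 of 48 (0.32 and 0.20). Of the 26 genes with at least 50% unique reads, 24 were above both (0.34 and 0.23). The count was 32 of 34 for genes with 5 to 50% unique reads and 15 of 20 below 5%. On uniquely placed reads alone, 59 of 74 measured genes were above both controls, against 41.0% of all genes on that count, and 8 were below both.

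The size of the difference was small for each gene. Only 7 genes were at least 25% higher than both controls, which is 8.75% of the 80 and less than the 15.1% of all genes tested. None was lower by that factor, against 18.6% of all genes, and none was 2-fold higher, against 2.40%. The 7 depend on the scaling of the libraries and become 29 when library totals replace TMM, against 21.1% of all genes.

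The genes at least 25% higher belong to both subunits. Rpl8, a core protein near the catalytic centre of the large subunit with 100% unique reads, had 567 CPM under hsa-miR-199a-3p, 446 under hsa-miR-590-3p, 429 under cel-miR-67 and 441 in mock. The hsa-miR-199a-3p library alone stands out there, at 1.32 times cel-miR-67 (95% interval 1.29 to 1.35) and 1.29 times mock (1.26 to 1.31). Rps20, of the head of the small subunit, had 377 CPM under hsa-miR-199a-3p, 265 under hsa-miR-590-3p, 284 under cel-miR-67 and 283 in mock, and was 1.33 times each control.

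Rpl13a, known in human cells for silencing inflammatory messenger RNAs after its release from the ribosome, had 715 CPM under hsa-miR-199a-3p, 516 under hsa-miR-590-3p, 557 under cel-miR-67 and 569 in mock. Its ratios were 1.29 over cel-miR-67 and 1.26 over mock, and 90.1% of its reads were unique. Rpl36, a small protein of the large subunit, had 193, 168, 152 and 152 CPM in the same order, so both microRNA libraries were above both controls. Rpl29 is also in this group, but rests on 79 reads under hsa-miR-199a-3p, 23 under hsa-miR-590-3p, 32 under cel-miR-67 and 40 in mock. With records named for the same protein added, its log2 ratios were 0.41 over cel-miR-67 and 0.30 over mock, so it left the group. Just outside this limit (log2 0.32) lay Rps15 and Rpl37a, whose smaller log2 ratio was 0.31 for each, and just inside lay Rpl13a (0.33).

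Rpl18, a large subunit protein with 100% unique reads, had the highest ratio over cel-miR-67 among the abundant genes. It had 421 CPM under hsa-miR-199a-3p, 317 under hsa-miR-590-3p, 234 under cel-miR-67 and 331 in mock. The cel-miR-67 library was low for this gene, so that the hsa-miR-199a-3p library had a log2 ratio of 0.84 over cel-miR-67 but 0.34 over mock. Rps14, a platform protein of the small subunit with 100% unique reads, had 414 CPM under hsa-miR-199a-3p, 280.5 under hsa-miR-590-3p, 289 under cel-miR-67 and 335 in mock. It was 1.43 times cel-miR-67 (1.40 to 1.47) and 1.24 times mock (1.21 to 1.27). Rps3, at the entry of the messenger RNA channel and also a DNA repair protein, had 598, 436, 428 and 499 CPM in the same order, with log2 ratios of 0.48 and 0.26 over cel-miR-67 and mock. Rps15a, another of the highest over cel-miR-67, had log2 ratios of 0.49 and 0.14 over cel-miR-67 and mock.

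Rpl36al was the exception. It is a retroposed second copy of Rpl36a, and all its reads were unique. It had 117 CPM under hsa-miR-199a-3p, 119 under hsa-miR-590-3p, 141 under cel-miR-67 and 144 in mock, so both microRNA libraries were below both controls. The ratio was 0.830 over cel-miR-67 (0.797 to 0.865) and 0.812 over mock (0.779 to 0.846) under hsa-miR-199a-3p, and 0.846 and 0.828 under hsa-miR-590-3p. Rpl36a, its parent gene with 91.3% unique reads, had 181 CPM under hsa-miR-199a-3p, 140.0 under hsa-miR-590-3p, 136 under cel-miR-67 and 159.8 in mock. The 2 genes of this pair therefore differed in direction under hsa-miR-199a-3p, with log2 ratios over mock of -0.30 for Rpl36al and 0.18 for Rpl36a.

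**Figure D3:**
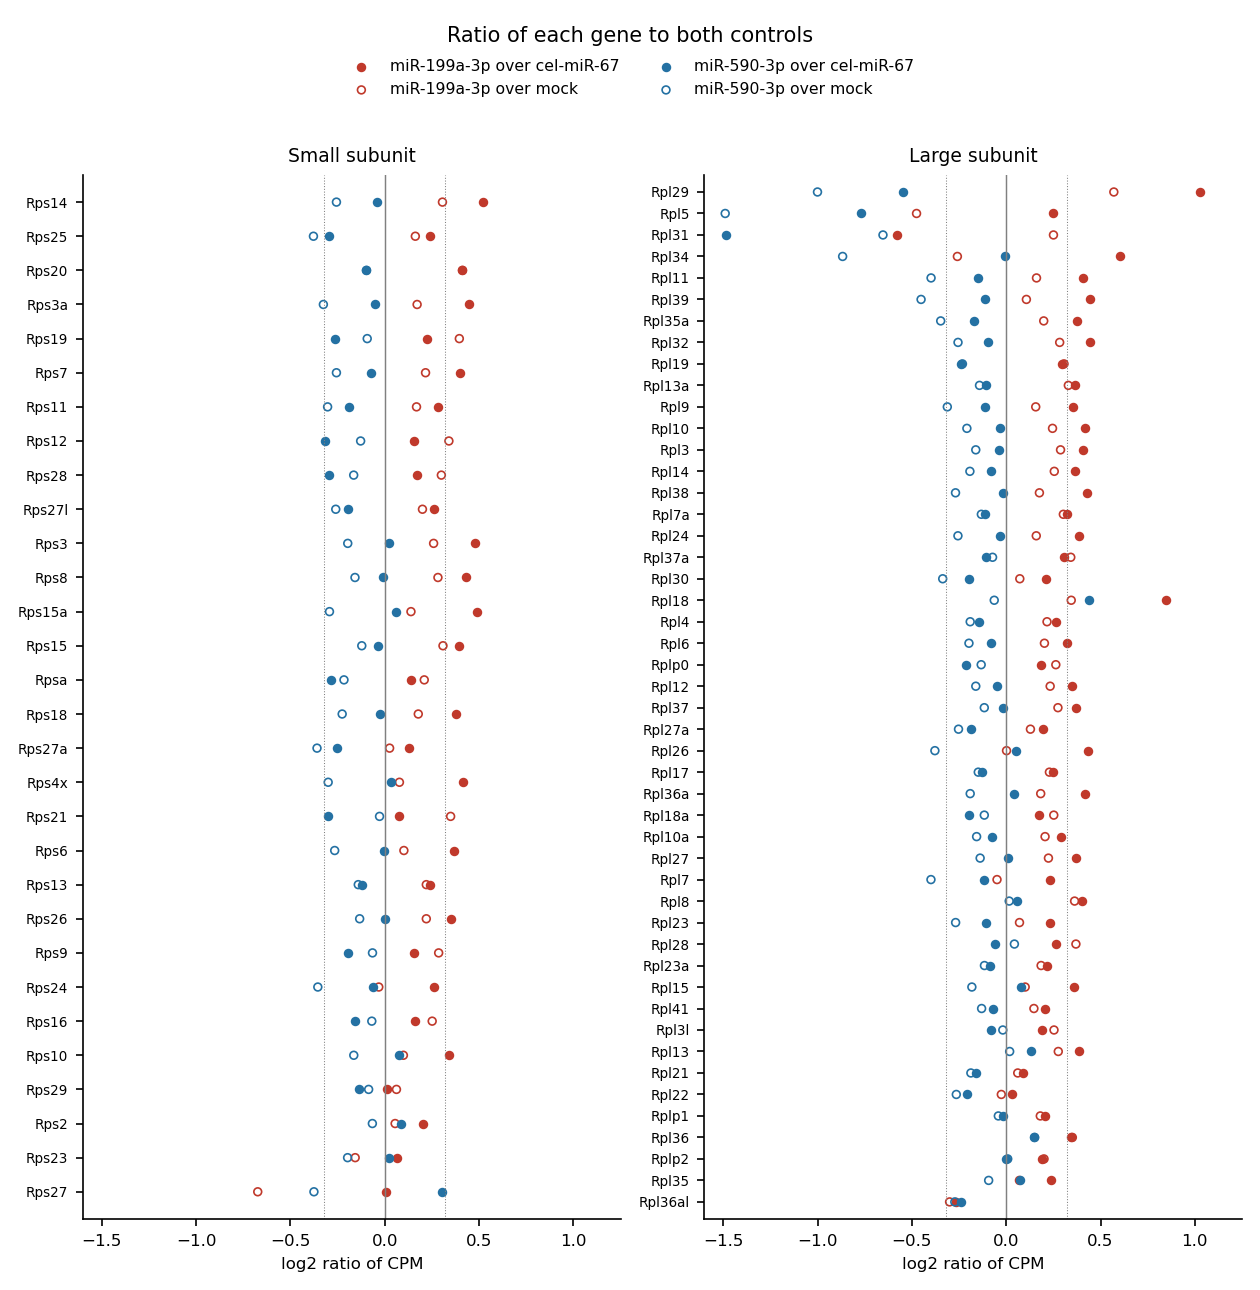
Log2 ratio of CPM of the measured genes, except a few not reported here, over cel-miR-67 (filled) and over mock (open), for hsa-miR-199a-3p (red) and hsa-miR-590-3p (blue), ordered by the ratio of hsa-miR-199a-3p to hsa-miR-590-3p, with dotted lines at a log2 ratio of 0.32 on either side. Red points lie right of 0 for most genes (71 of all 80 measured genes on both measures), and blue points mostly left of it. Rpl36al has all 4 points left of 0.

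The other genes that were not above both controls mostly had few unique reads. Rpl31, of the exit tunnel rim, had 235 reads under hsa-miR-199a-3p, 110 under hsa-miR-590-3p, 292 under cel-miR-67 and 149 in mock, so that the controls differ from each other by 1.78-fold. Rps27, a zinc-binding protein of the small subunit, had 1237, 1335, 1023 and 1489 reads in that order, with 0.0590% of them unique. With a non-coding record of the same symbol added, it had 7621, 4843, 4776 and 5012 reads, and the log2 ratios became 0.41 over cel-miR-67 and 0.20 over mock. Rps23, of the decoding centre, had log2 ratios of 0.06 and -0.16 with 0.344% unique reads.

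Rpl22, which in other cells also binds small viral and cellular RNAs, had log2 ratios of 0.03 and -0.03, and its relative Rpl22l1 had 0.45 and -0.01. With records named for the same protein added, the log2 ratios of Rpl22 were 0.22 over cel-miR-67 and 0.25 over mock, so above both. Rpl7, with 82.5% unique reads, was above cel-miR-67 (0.23) and not above mock (-0.05). Rps29 (0.01 and 0.06) and Rps2 (0.21 and 0.05) were among those closest to the controls.

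The 3 proteins of the stalk, which brings elongation factors to the large subunit, were all above both controls under hsa-miR-199a-3p. Rplp0, the base of the stalk, had 1318 CPM under hsa-miR-199a-3p, 1002 under hsa-miR-590-3p, 1161 under cel-miR-67 and 1099 in mock. The hsa-miR-590-3p library was the lowest for this gene. Rplp1 had 639, 548, 555 and 564 CPM in the same order, and Rplp2 288, 252, 253 and 251. For these partners of the stalk base the other 3 libraries lay close together.

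Rpl5 and Rpl11, which carry 5S ribosomal RNA into the large subunit and, when free, bind the p53 inhibitor Mdm2, did not give the same picture. Rpl11 had 342 CPM under hsa-miR-199a-3p, 232 under hsa-miR-590-3p, 257 under cel-miR-67 and 306 in mock. Rpl5 had 60.0, 29.7, 50.6 and 83.4 CPM in that order, above cel-miR-67 but below mock (log2 0.25 and -0.48). Only 0.0520% of the Rpl5 reads and 0.306% of the Rpl11 reads were unique. With predicted records added that were annotated as L5-like in the files and now belong to Rpl5 in RefSeq, it had 12473 reads under hsa-miR-199a-3p, 9256 under hsa-miR-590-3p, 8553 under cel-miR-67 and 9550 in mock, with log2 ratios of 0.28 over cel-miR-67 and -0.02 over mock. The ratio of Rpl5 thus depends on which records are counted.

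Of 17 genes with a role known beyond or before translation, 16 were above both controls under hsa-miR-199a-3p, with medians of 0.36 and 0.20, close to the 71 of 80 among all measured ribosomal protein genes. Rps6, the target of S6 kinase, had 635 CPM under hsa-miR-199a-3p, 492 under hsa-miR-590-3p, 493 under cel-miR-67 and 592 in mock. Rps19, the gene most often mutated in human Diamond-Blackfan anaemia, had 272, 194, 233 and 207 CPM in that order. Rps24, also of that group, was the exception, with 535 CPM under hsa-miR-199a-3p, 427 under hsa-miR-590-3p, 447 under cel-miR-67 and 547 in mock.

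Rpl38, known in mouse embryos for the translation of Hox messenger RNAs, had log2 ratios of 0.43 over cel-miR-67 and 0.18 over mock, and Rps25, needed by several viral internal ribosome entry sites, had 0.24 and 0.16. Rpsa, which doubles as a laminin receptor, had 0.14 and 0.21. Rpl26, which binds the p53 messenger RNA in human cells, had 0.43 and 0.00. Rps27a, made as a fusion with ubiquitin, had 0.13 and 0.03. Rps27l, the p53-induced relative of Rps27 with 100% unique reads, had 83.5 CPM under hsa-miR-199a-3p, 60.7 under hsa-miR-590-3p, 69.5 under cel-miR-67 and 72.7 in mock.

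Under hsa-miR-590-3p the genes lay slightly below the controls. Of 80 genes, 62 were below both, against 36.6% of all genes tested, and 3 (Rpl13, Rpl36 and Rpl8) were above both, against 35.5%. The median log2 ratios were -0.08 over cel-miR-67 and -0.19 over mock. None was at least 25% higher than both controls, against 7.44% of all genes, and 3 were lower by that factor, against 5.38%. Those 3 were Rpl5, Rpl29 and Rpl31, none with more than 5.17% unique reads, and none of the 3 calls held when records named for the same protein were added. The log2 ratios over cel-miR-67 and mock then were 0.03 and -0.26 for Rpl5, 0.13 and -0.02 for Rpl31, and 0.44 and 0.34 for Rpl29, which was then at least 25% higher than both. Among genes with at least 50% unique reads, 20 of 26 were below both, with medians of -0.11 and -0.19. With library totals in place of TMM the count below both was 38 of 80. Library totals also raised the ratios of all genes, so the 36.6% is not the background of this count. The count is given only to show the dependence on scaling.

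Rps25, with 58.1% unique reads, is an example of a lower gene, with 231 CPM under hsa-miR-590-3p, 284 under cel-miR-67 and 299.7 in mock. Its log2 ratios were -0.30 and -0.38. Rps21, a small subunit protein with 92.0% unique reads, had 131 CPM under hsa-miR-590-3p, 161 under cel-miR-67 and 133 in mock, so of the controls only cel-miR-67 stands clearly above it. Rps12, of the beak of the small subunit, was also below both, with log2 ratios of -0.32 and -0.13. Rps10, of the small subunit head, lay between the controls, with 0.08 and -0.16, and so did Rpl18, with 0.44 and -0.06.

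The direct comparison of the 2 microRNA libraries does not use the controls. Of 80 genes, 78 were higher under hsa-miR-199a-3p than under hsa-miR-590-3p, against 49.6% of all genes tested, and 62 were at least 25% higher, against 18.6%. Only Rpl29 and Rpl5 were at least 2-fold higher, 2.50% of the genes against 1.87% of all. With records named for the same protein added, this log2 ratio was -0.03 for Rpl29 and 0.24 for Rpl5, so neither was 2-fold higher. The median log2 ratio was 0.40, with quartiles of 0.34 and 0.47, while all genes tested had a median of 0.00 with quartiles of -0.29 and 0.24. The robust SD of this ratio over the 80 genes was 0.10, against 0.39 over all genes and 0.34 over genes of at least 100 CPM. For the genes with at least 50% unique reads the median was 0.43 and the robust SD 0.07, and 24 of 26 were at least 25% higher.

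Rps14 was the highest in this ratio among genes with at least 50% unique reads (log2 0.56), followed by Rps25 (0.54), and Rpl36al was the lowest (-0.03). Rps27, the other gene not higher, had -0.30, and 0.47 with the non-coding record of its symbol added. Rps2 (0.12), Rps29 (0.15), Rpl35 (0.16) and Rps23 (0.04) were near 0 and had at most 7.79% unique reads. The 51 genes with a promoter run of at least 8 C or T had a median of 0.39 in this ratio, and the 9 with a shorter run 0.42.

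**Figure D4:**
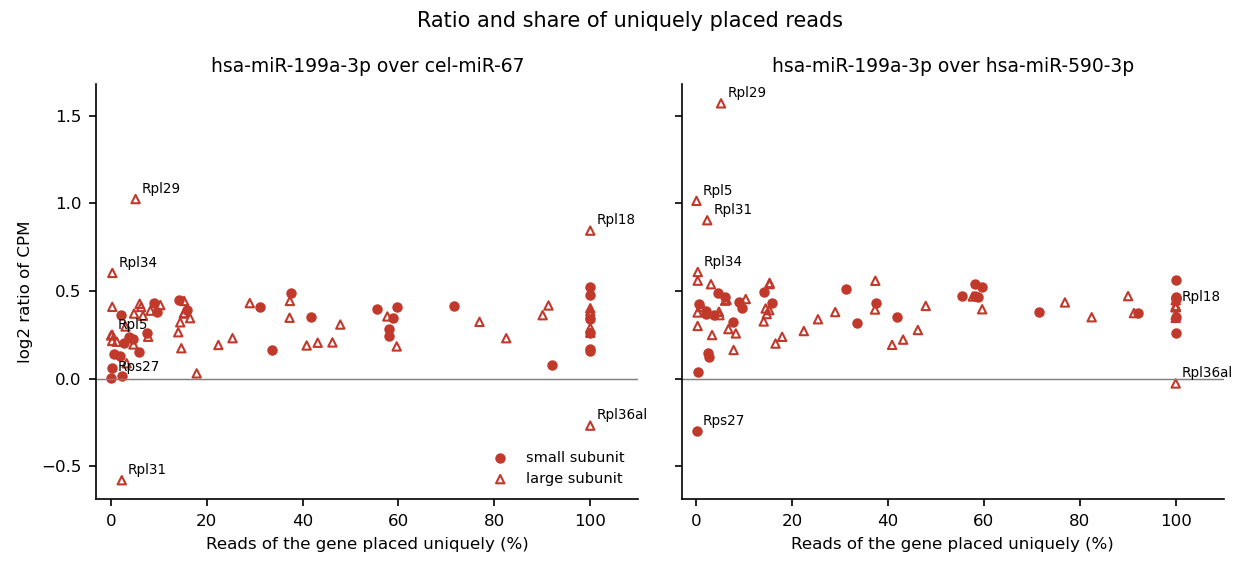
Log2 ratio of CPM of each gene against the share of its reads placed uniquely, for hsa-miR-199a-3p over cel-miR-67 (left) and over hsa-miR-590-3p (right), with filled circles for the small and open triangles for the large subunit. The points form a band above 0 at all shares of unique reads. Rpl29, Rpl5, Rpl31, Rpl34 and Rps27, all with at most 5.17% unique reads, lie off the band in at least 1 panel. So do Rpl36al and, over cel-miR-67, Rpl18, each with 100%.

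The 2 controls also differed from each other. Under cel-miR-67, 62 of 80 genes were lower than in mock, against 49.7% of all genes, with a median log2 ratio of -0.11. Of these, 9 were lower by the factor used above, against 11.0% of all genes, and 1 (Rpl31) was at least 25% higher, against 9.38%. The 9 were Rpl34, Rpl5, Rps27, Rpl18, Rpl29, Rpl26, Rps15a, Rpl39 and Rps4x. With records named for the same protein added, the log2 ratio of cel-miR-67 over mock was 0.43 for Rpl34, -0.30 for Rpl5, -0.20 for Rps27, -0.10 for Rpl29 and -0.14 for Rpl31, so these calls rest on the records counted. Rps4x had 588 CPM under cel-miR-67 and 742 in mock, and Rpl39, a small protein of the exit tunnel, 239.9 and 303. The median difference between the controls was thus as large as that of hsa-miR-590-3p from cel-miR-67 (-0.08). Being lower under cel-miR-67 than in mock was not particular to these genes, as given below for other groups.

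Length and abundance of the genes were considered, because other short genes also differed between libraries. Among all 1164 genes with a record under 1000 bases, 50.7% were above both controls under hsa-miR-199a-3p and 17.1% were at least 25% higher. Among the 113 short genes of at least 100 CPM that are not ribosomal protein genes of this list, 43 were above both controls, with medians of 0.03 over cel-miR-67 and -0.04 over mock. Of the 72 ribosomal protein genes of at least 100 CPM, 67 were above both, with medians of 0.33 and 0.21. Under hsa-miR-590-3p the picture was different. There 88 of the 113 other short, abundant genes (77.9%) were below both controls, close to the 55 of 72 ribosomal protein genes (76.4%), and their medians were -0.21 and -0.27. In the direct comparison 86 of the 113 were higher under hsa-miR-199a-3p, with a median of 0.20, against 71 of the 72 ribosomal protein genes. At least 25% higher there were 40 of the 113 (35.4%) and 37.0% of all genes under 1000 bases, against 57 of the 72 (79.2%). The low position under hsa-miR-590-3p was thus shared by other short, abundant genes. Between the controls, 72 of the 113 (63.7%) were lower under cel-miR-67 than in mock, against 56 of the 72 ribosomal protein genes (77.8%).

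**Figure D5:**
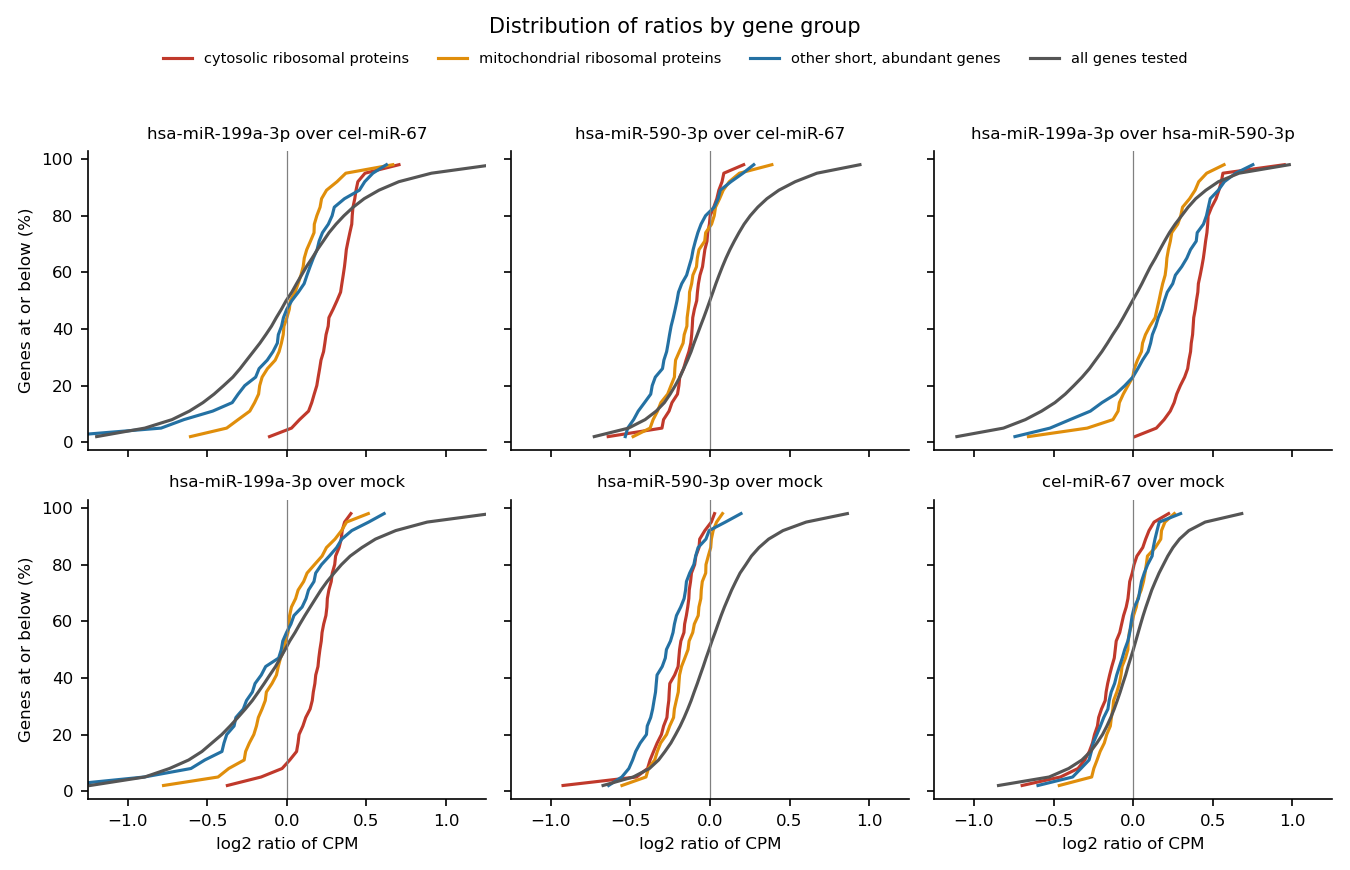
Share of genes at or below a log2 ratio of CPM, for 6 pairs of libraries, over the 80 measured cytosolic ribosomal protein genes (red), 78 mitochondrial ribosomal protein genes (orange), 113 other genes under 1000 bases and of at least 100 CPM (blue) and all 13503 genes tested (grey). In the hsa-miR-199a-3p panels over each control the red curve is steep and its middle lies right of the others, with medians of 0.31 and 0.21, while the upper ends of the curves cross. Under hsa-miR-590-3p the red, orange and blue medians all lie below 0, the blue one lowest.

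Genes of related function were set beside these, from lists chosen with earlier results of these data known. Mitochondrial ribosomal protein genes, which build the separate ribosome of mitochondria, were above both controls under hsa-miR-199a-3p in 30 of 78 cases, against 40.2% of all genes, with medians of 0.02 over cel-miR-67 and -0.02 over mock. The count was 47 with library totals in place of TMM. Library totals also raised the ratios of all genes, so the 40.2% is not the background of this or of the later counts on library totals. Those counts are given only to show the dependence on scaling. Mrpl12 had 53.3 CPM under hsa-miR-199a-3p, 93.1 under hsa-miR-590-3p, 108 under cel-miR-67 and 104 in mock. Under hsa-miR-590-3p 52 of the 78 were below both, against 36.6% of all genes. Ribosome biogenesis genes, which process ribosomal RNA and assemble subunits, were above both in 15 of 57 cases under hsa-miR-199a-3p, against 40.2% of all genes (medians 0.00 and -0.10). With library totals the count was 30 and the median over cel-miR-67 was 0.09. Nop56, of the particle that methylates ribosomal RNA, was higher, with log2 ratios of 0.48 and 0.33. Ncl, the nucleolar protein nucleolin, had -0.24 and -0.28, and Gnl3, nucleostemin, -0.51 and -0.58.

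Translation factors were above both in 16 of 39 cases, close to the 40.2% of all genes (medians 0.05 and -0.03). Eef1g, a subunit of the elongation factor exchange complex, was the highest, with 824 CPM under hsa-miR-199a-3p, 555 under hsa-miR-590-3p, 565 under cel-miR-67 and 649.8 in mock. Eef1a1, which brings aminoacyl-tRNA to the ribosome, had 0.28 and 0.20, and Eef2, the translocase, 0.13 and 0.13. These elongation factors are also encoded by TOP messenger RNAs, and a link of that to their ratios was not tested. Of the 39 factors, 13 were below both controls, against 41.9% of all genes. The lowest log2 ratios in the list were -0.53 over cel-miR-67 and -0.68 over mock. Of 8 ribosome-associated genes outside the rule, 4 were above both (7 with library totals), and Rack1, the scaffold on the small subunit, had 0.42 and 0.28.

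Genes of the mTORC1 and LARP1 pathway were above both controls in 12 of 33 cases under hsa-miR-199a-3p, close to the 40.2% of all genes (medians -0.03 and -0.04). With library totals the count was 20 and the median over cel-miR-67 was 0.06. Mtor, the kinase, had 87.9 CPM under hsa-miR-199a-3p, 133 under hsa-miR-590-3p, 134 under cel-miR-67 and 130.2 in mock, with log2 ratios of -0.61 and -0.57. Akt1s1, an inhibitory subunit of the complex, had -0.80 and -0.75. Rragb, a GTPase that brings the complex to the lysosome, had 4.92, 2.86, 2.06 and 2.37 CPM in that order. Larp1 had log2 ratios of 0.19 and 0.09. Between the controls, 35 of 39 translation factors (median log2 ratio -0.16) and 47 of 57 ribosome biogenesis genes (-0.09) were lower under cel-miR-67 than in mock. The counts were 46 of 78 for mitochondrial ribosomal protein genes and 16 of 33 for the mTORC1 and LARP1 pathway, against 49.7% of all genes.

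Markers of cell types differed between the libraries beside these results. The 11 cardiomyocyte markers were all detected and summed to 41549 CPM under hsa-miR-199a-3p, 42212 under hsa-miR-590-3p, 54976 under cel-miR-67 and 61312 in mock. The 7 fibroblast markers summed to 11691, 11244, 9936 and 10425 CPM in the same order, and the 4 markers of smooth muscle and pericytes to 5063, 3843, 3787 and 3131. The 5 endothelial markers summed to 158, 186, 161 and 216 CPM, and the 4 macrophage markers to at most 6.22 CPM in any library. The cardiomyocyte sum was lower under both microRNAs than in either control, and the sum for smooth muscle and pericytes was highest under hsa-miR-199a-3p. These sums weigh abundant markers most, and single markers are not given. The part of these differences in the results on ribosomal protein genes was not tested.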

How the data were processed

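The deposited files list 36065 RefSeq records with 2 counts each, per the file headers, one of total and one of uniquely placed reads, and the length and RPKM (per kilobase and library total) that the authors computed. CASAVA 1.8 and mm8 are named per the submitters' processing notes, with the mapping program not given in the sources used. Totals include reads shared with other records. Reads and RPKM of the 93 messenger RNA records that met the symbol rule were summed per gene. edgeR 4.0.16 (R 4.3.3) supplied TMM factors only, and DESeq2 1.42.0 size factors for an alternative. CPM ratios took a prior count of 0.5, and genes had to average 1 CPM or more. With 1 library per condition no test was made. A gene was called when above or below both controls, or when at least 25% or 2-fold from both. Ratio intervals (95%) are Clopper-Pearson intervals of total counts, conditional on their sum, and cover counting error only. Robust SD is the scaled median absolute deviation. The ratios were checked on simulated counts. Genes named are the highest and lowest by level and by ratio in each comparison, paralogue pairs, and genes of role lists, with a few more chosen after their values were seen. A few genes are not reported here. Members, lists and rules were chosen with earlier results of these data known. Promoter and microRNA sequences are from RefSeq (GRCm38.p6), matched by symbol. Python 3.11.15, numpy 2.4.6, pandas 2.3.3, scipy 1.17.1 and matplotlib 3.10.9 were used.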

Additional observations from a re-analysis of the deposited data

How the results depend on the processing

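No paired analysis was possible because each condition is 1 library. Under hsa-miR-199a-3p the count of ribosomal protein genes above both controls stayed between 69 and 74 over the alternatives that kept about 80 genes, and was 59 of 74 on uniquely placed reads. The median lay between 0.27 and 0.41 over cel-miR-67 and between 0.20 and 0.32 over mock. Library totals in place of TMM moved the median of all genes under hsa-miR-199a-3p by 0.09 over cel-miR-67 and 0.10 over mock. The shares of all genes above or below both controls given earlier hold for TMM and are no background for counts on library totals. With them, 38 genes were below both controls under hsa-miR-590-3p, and the counts above both under hsa-miR-199a-3p were 7 for ribosomal proteins outside the rule, 30 for ribosome biogenesis, 20 for the mTORC1 pathway and 47 for mitochondrial ribosomal proteins. The medians of 2 lists over cel-miR-67 then changed sign, to 0.0881 for ribosome biogenesis and 0.0579 for the mTORC1 pathway. Keeping only genes with at least 50% unique reads left 26 genes, so the counts became 24 above both (hsa-miR-199a-3p), 20 below both (hsa-miR-590-3p), 22 lower (cel-miR-67) and 25 higher (hsa-miR-199a-3p over hsa-miR-590-3p). The share of library totals, relative to the controls, was then 1.29, against 1.28 for all 82 genes. For all 82 genes this excess was smaller with TMM-adjusted library sizes. Per kilobase, over all 82 genes, the share relative to the controls was 1.23. Adding records of the same symbol or protein, and genes of at least 100 CPM as background, were chosen after seeing the data. Without replicates, depth limits only counting error.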
